A study of Mus musculus with 24 samples.

Results

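The 37 interferon-stimulated genes examined here were taken by symbol from 46078 genes in tables of gene expression in mouse muscle stem cells with and without Chd4, the motor subunit of the NuRD complex that remodels chromatin. All 37 symbols were found in both tables. RNA-seq was made from 16 samples in 4 groups of 4, all C57BL/6 mice or their cells at 2 to 4 months of age. In vitro, myoblasts grown from satellite cells of uninjured Chd4fl/fl muscle received an adenovirus coding for Cre (AdCRE) or for GFP (AdGFP) and were harvested 72 hours later. In vivo, satellite cells came from Chd4dPax7ER mice or Chd4fl/fl mice 3 days after cardiotoxin injury, sorted as SCA1-, CD45-, alpha7-integrin+ and CD34+ cells. Both culture groups met virus, but the Cre came with the AdCRE virus alone. An effect of Cre, or of any difference between the viruses or their doses, cannot be told apart from an effect of losing Chd4. No virus is named for the sorted cells, and of the mice only the case label names Pax7ER. The sources used here do not give whether Chd4fl/fl mice carried Cre or were treated alike. Replicates are numbered 1 to 4 in each group and are not stated to be separate animals or cultures, so p-values measure the spread between these samples, which may be technical.

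Interferons are secreted when a cell senses foreign or misplaced nucleic acid. Type I interferons bind the receptor chains Ifnar1 and Ifnar2, whose kinases Jak1 and Tyk2 phosphorylate Stat2. Stat2 and Irf9 are part of the complex ISGF3, which binds the interferon-stimulated response element (ISRE) in the promoters of many interferon-stimulated genes. Their products bind viral RNA, block translation, trap virions at membranes or feed back on the pathway, and many also have a basal level in cells that have met no virus. Chd4 and NuRD are best known for repressing genes of other lineages, and skeletal muscle regeneration includes a wave of infiltrating immune cells.

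RefSeq promoters (250 bases before to 50 bases after the start, GRCm38.p6) were found for 27 of the 37 members. An ISRE core, searched as GAAA, 2 bases of any kind and GAAA again on both strands with overlaps allowed, was present in 14 of these 27 (51.9%), against 3.99% of 27025 genes with a promoter of that length. A GAS core (TTCNNNGAA, the gamma-activated site) was present in 6 of 27 (22.2%), against 9.55% of genes. The 250 bases before the start are shown for 6 members that the results turn on, in the 5′ to 3′ direction of the gene, with ISRE matches in capitals. Ifit1 (chr19:34640639-34640888, plus strand), Isg15 (chr4:156200819-156201068, minus strand) and Rsad2 (chr12:26456453-26456702, minus strand) are the members that passed the unpaired test in culture. Bst2 (chr8:71537473-71537722, minus strand) and Ifitm2 (chr7:140955962-140956211, minus strand) passed in sorted cells, and Oasl1 (chr5:114922990-114923239, plus strand) passed in sorted cells with no match in its window.
Ifit1: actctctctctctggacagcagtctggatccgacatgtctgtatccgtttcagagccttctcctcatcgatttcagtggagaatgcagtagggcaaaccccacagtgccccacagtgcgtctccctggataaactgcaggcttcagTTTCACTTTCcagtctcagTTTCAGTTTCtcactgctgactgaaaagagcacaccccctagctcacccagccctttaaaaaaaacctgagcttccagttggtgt
Isg15: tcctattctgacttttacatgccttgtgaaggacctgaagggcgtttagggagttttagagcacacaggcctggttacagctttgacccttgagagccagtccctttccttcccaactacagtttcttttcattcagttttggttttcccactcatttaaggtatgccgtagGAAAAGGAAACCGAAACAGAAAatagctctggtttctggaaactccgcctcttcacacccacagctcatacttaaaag
Rsad2: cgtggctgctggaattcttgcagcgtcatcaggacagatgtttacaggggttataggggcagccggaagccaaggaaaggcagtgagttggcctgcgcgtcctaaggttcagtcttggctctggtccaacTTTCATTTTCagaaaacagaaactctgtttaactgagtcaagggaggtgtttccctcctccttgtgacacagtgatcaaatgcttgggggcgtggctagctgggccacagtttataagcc
Bst2: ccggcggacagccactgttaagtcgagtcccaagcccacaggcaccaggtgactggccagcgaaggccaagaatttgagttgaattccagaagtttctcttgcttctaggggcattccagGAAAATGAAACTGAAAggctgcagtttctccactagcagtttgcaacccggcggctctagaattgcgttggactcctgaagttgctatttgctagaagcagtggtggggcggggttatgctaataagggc
Ifitm2: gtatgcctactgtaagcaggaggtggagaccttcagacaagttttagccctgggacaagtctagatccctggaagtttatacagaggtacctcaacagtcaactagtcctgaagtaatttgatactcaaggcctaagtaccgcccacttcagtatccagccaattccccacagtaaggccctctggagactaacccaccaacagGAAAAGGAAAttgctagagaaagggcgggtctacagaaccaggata
Oasl1: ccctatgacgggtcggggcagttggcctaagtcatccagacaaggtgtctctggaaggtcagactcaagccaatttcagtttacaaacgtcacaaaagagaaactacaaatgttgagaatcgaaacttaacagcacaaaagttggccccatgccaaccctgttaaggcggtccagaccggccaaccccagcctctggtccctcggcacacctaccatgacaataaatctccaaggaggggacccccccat
The Ifit1 matches begin 104 and 85 bases before the start. In Isg15 there are 3 overlapping matches between 78 and 66 bases before it, and in Bst2 the pair begins at 130 and 124 bases. A single match lies 120 bases before the start of Rsad2 and 46 bases before that of Ifitm2. A match describes letters only and shows no binding. It also depends on the start used. The annotated Oasl1 gene begins at 114923143, inside the window shown. The windows of Ifit3, Ifit3b, Ifitm1 and Ifitm2 lie inside their annotated genes. Ifit2, Irf1 and Irf9 have a further window each, which also lies inside the gene. No start of these genes beyond those windows was searched.

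Chd4 transcript, the check of the labels, was at 15.8 to 23.9 RPKM in AdCRE and 67.8 to 85.5 in AdGFP, and at 48.7 to 64.1 in Chd4dPax7ER and 119 to 135 in Chd4fl/fl. It was thus lower in every case library (limma adjusted p = 0.00374 and 0.000152, exact two-sided permutation p = 0.0286 in each setting, the smallest that 70 arrangements can give). Values are RPKM, reads scaled to gene length and library size. RPKM gives no read totals, but in vitro low values are whole multiples of the value of 1 read, and they put the deepest library at 1.64 times the depth of the shallowest. Satellite cell and myoblast markers (9 genes, Pax7 and Myod1 among them) were present in every library and summed to between 1248 and 1581 RPKM in culture. In sorted cells their sum was 1111 to 1338 RPKM in Chd4dPax7ER and 687 to 865 in Chd4fl/fl, but the markers did not move alike. Of the 9, 4 passed as higher there and 1, Pax7, as lower, where 14.7% of all genes tested were higher and 11.9% lower. Mean Myod1 was 132 RPKM against 65.7 (limma adjusted p = 0.0011). Mean Pax7 was 11.5 RPKM against 21.3 (limma adjusted p = 0.0301), a call kept in 4 of 8 fits that leave out 1 library.

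In cultured myoblasts, a small set of interferon-stimulated genes rose with AdCRE from a very low base. Ifit1, Isg15 and Rsad2 passed the unpaired test, with mean levels 11.2, 4.00 and 3.55 times those of AdGFP, and no member passed as lower in that test. A fit that pairs same-numbered libraries called more members and is given in the next paragraph. A gene was tested if it reached 0.5 RPKM in at least 4 of the 8 libraries, and it passed at a Benjamini-Hochberg adjusted p under 0.05 over all genes tested. This left 20 members tested, of which 3 passed as higher, where 0.516% of the 13567 genes tested were higher and 0.14% lower (9 members had an unadjusted p under 0.05). Log2 fold changes, on the scale log2(RPKM + 0.5), were above 0 for 19 of the 20, with a median of 0.30 against -0.01 over all genes. Filtered members can pass through their case libraries alone, as Ifit1 did, so these counts describe the libraries and are not a test of the list. In bulk RNA, fewer cells that express a gene and less RNA per cell cannot be told apart.

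Same-numbered culture libraries deviate together, and with the replicate number as a block 11 members were higher and 1, Ifit2, was lower. That fit called far more genes of every kind, 17.5% higher and 18.7% lower. Beside the 3 above, the blocked fit called Oasl1, Ifitm1, Irf7, Ifi35, Ddx58, Lgals3bp, Bst2 and Ifi27 higher. Whichever fit is used, groups did not overlap for 9 of the 20 tested members, each higher in AdCRE, where 3.80% of tested genes separated this way and 6.21% separated with AdCRE lower. The remaining 17 members were under the filter, and Oas1a and Oas1g are listed at 0 in all 8 libraries.

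In sorted satellite cells 3 days after injury, the tetherin gene Bst2, Ifi27 and the IFITM genes Ifitm2 and Ifitm3 rose, among others. Of 33 members tested, 12 were higher in Chd4dPax7ER cells and none was lower, where 14.7% of 13344 genes were higher and 11.9% lower. They were Bst2, Ifi27, Ifitm2, Ifitm3, Ifit3b, Irf7, Stat2, Ddx58, Oasl1, Oas1a, Usp18 and Trim25. The median log2 fold change of the 33 was 0.28 against -0.02 over all genes, with 29 above 0. Groups did not overlap for 11 members, each higher in Chd4dPax7ER, a pattern that 16% of tested genes showed, with 14.3% separated the other way. Oas1b, Oas1g, Oas3 and Ifi44 were under the filter.

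**Figure D1:**
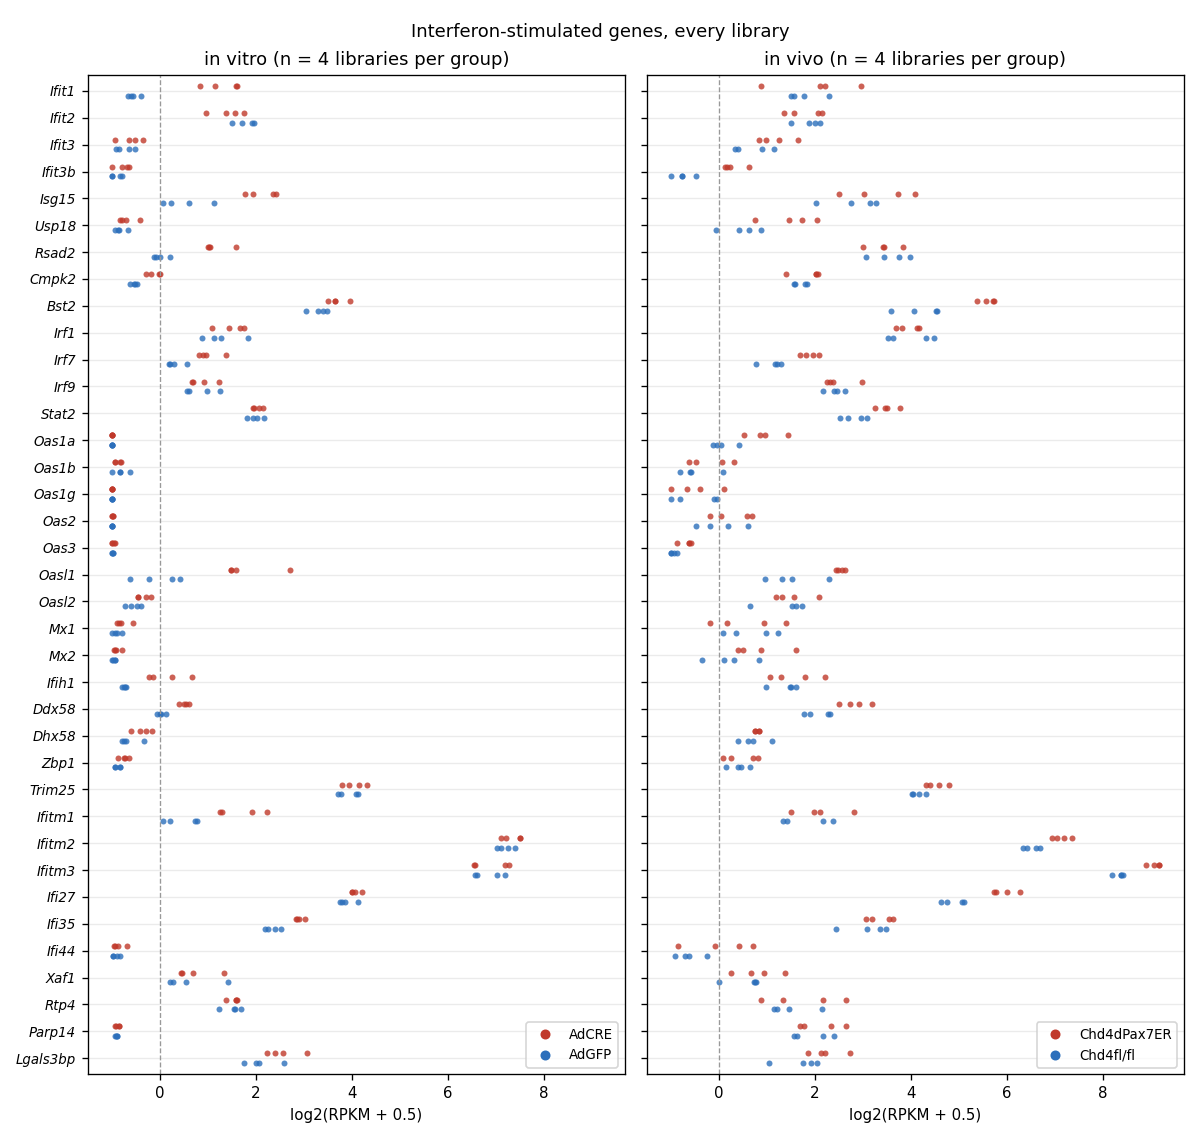
Level of each of the 37 members in every library, as log2(RPKM + 0.5), in culture (left) and in sorted cells (right), with case libraries in red above control libraries in blue. Each point is 1 library, with 4 in each group, and the dashed line marks 0.5 RPKM, the level of the filter. Many members sit left of that line in culture, while in sorted cells 33 of the 37 passed the filter.

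The IFIT genes encode proteins that bind viral RNA with foreign 5′ ends, and the 4 members lie side by side on chromosome 19 (GRCm38, 34550550 to 34650009). Ifit1 in AdCRE replicates 1 to 4 was at 2.49, 1.28, 1.71 and 2.55 RPKM, and in AdGFP at 0.131, 0.254, 0.177 and 0.155 RPKM. Every AdCRE library stood far above every AdGFP library (2.01 ± 0.617 against 0.179 ± 0.0534, SD, n = 4, log2 fold change 1.85, SE 0.19, adjusted p = 0.00958). These levels correspond to 87 to 206 reads with AdCRE and 9 to 16 with AdGFP, and the call was kept in all 8 fits that leave out 1 library. Ifit2, the farthest of the 4 members from Ifit1, went the other way. It was at 1.43, 2.08, 2.84 and 2.45 RPKM in AdCRE and 2.32, 2.79, 3.41 and 3.28 in AdGFP. The groups overlapped, yet each AdCRE library was below the AdGFP library of its number (log2 fold change -0.37, SE 0.19, adjusted p = 0.392, or 0.00866 with the block). Ifit3 and Ifit3b stayed at or under 0.282 RPKM, which is at most 15 reads, and were not tested in culture.

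Ifit3b was the 1 IFIT member of 4 that passed in sorted cells, with 0.67, 1.04, 0.62 and 0.59 RPKM in Chd4dPax7ER and 0.08, 0, 0.08 and 0.22 in Chd4fl/fl (log2 fold change 1.05, SE 0.23, adjusted p = 0.00936). The groups were apart at a low level, Ifit3b met the filter through its case libraries alone, and it shares reads with its near copy Ifit3, so the split between them is uncertain. Ifit3 itself overlapped between groups (1.81 ± 0.604 against 1.16 ± 0.460, adjusted p = 0.197). Ifit1 was at 3.78, 7.28, 4.13 and 1.34 RPKM in Chd4dPax7ER and 2.91, 2.32, 2.45 and 4.36 in Chd4fl/fl. Case replicates 2 and 4 were the highest and the lowest of the 8, and the difference did not pass (log2 fold change 0.26, SE 0.39, adjusted p = 0.660). Ifit2 did not pass either (log2 fold change -0.09, adjusted p = 0.784). A difference of fold changes between the settings was not shown for Ifit1 or Ifit2 (adjusted p = 0.0687 and 0.687), and Ifit3 and Ifit3b were not in that fit.

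Isg15 encodes a ubiquitin-like protein that is attached to other proteins, and Usp18 the protease that removes it and also restrains the receptor. Isg15 in AdCRE held 4.82, 2.90, 3.35 and 4.61 RPKM, against 1.02, 1.68, 0.675 and 0.546 in AdGFP. The groups were apart (log2 fold change 1.61, SE 0.25, adjusted p = 0.0371, 0.00265 with the block). Without the block the call was kept in 1 of 8 fits that leave out a library, the one without AdGFP replicate 2, and was lost at up to 0.142 in the others. It was also lost with no filter (0.0746). With the block the Isg15 call was kept in 4 of 4 fits that leave out a pair (adjusted p up to 0.0161). Sorted cells held Isg15 at 5.15, 12.8, 16.6 and 7.65 RPKM in Chd4dPax7ER and at 3.55, 8.37, 6.18 and 9.12 in Chd4fl/fl. These overlapped and did not pass (log2 fold change 0.54, SE 0.37, adjusted p = 0.314). Usp18 did pass in sorted cells, at 1.2, 3.61, 2.79 and 2.26 RPKM against 0.45, 1.34, 1.04 and 0.83 (log2 fold change 1.03, SE 0.31, adjusted p = 0.0351). Its lowest case library lay below the highest control library, and the call was kept in 2 of 8 fits that leave out a library and lost with no filter (0.0748). The 6 losses were without Chd4dPax7ER replicate 2, 3 or 4 or Chd4fl/fl replicate 1, 3 or 4 (up to 0.0867). In culture Usp18 stayed at or under 0.248 RPKM.

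Rsad2, the antiviral enzyme viperin, and Cmpk2, a mitochondrial nucleotide kinase, are neighbours on chromosome 12 (GRCm38, 26442743 to 26479837). Rsad2 in AdCRE was at 2.50, 1.52, 1.54 and 1.49 RPKM and in AdGFP at 0.491, 0.644, 0.417 and 0.435. All AdCRE libraries were higher, replicate 1 most of all (log2 fold change 1.17, SE 0.16, adjusted p = 0.0252, 0.00109 with the block). Without the block the call was kept in 1 of 8 fits that leave out a library, the one without AdCRE replicate 1, and was lost at up to 0.108 in the others and with no filter (0.0608). With the block the Rsad2 call was kept in 4 of 4 fits that leave out a pair (adjusted p up to 0.00756). Cmpk2 was below the filter but ran in parallel, at 0.496, 0.489, 0.319 and 0.380 RPKM in AdCRE and 0.181, 0.211, 0.147 and 0.193 in AdGFP. With no filter Cmpk2 did not pass (adjusted p = 0.127), and it passed there with the block (0.0221). Neither gene passed in sorted cells. Rsad2 held 10.1, 13.8, 10.3 and 7.47 RPKM in Chd4dPax7ER and 7.84, 13.0, 10.3 and 15.2 in Chd4fl/fl (log2 fold change -0.14, SE 0.22, adjusted p = 0.691). Cmpk2 was at 3.25 ± 0.746 against 2.74 ± 0.302 (adjusted p = 0.480).

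**Figure D2:**
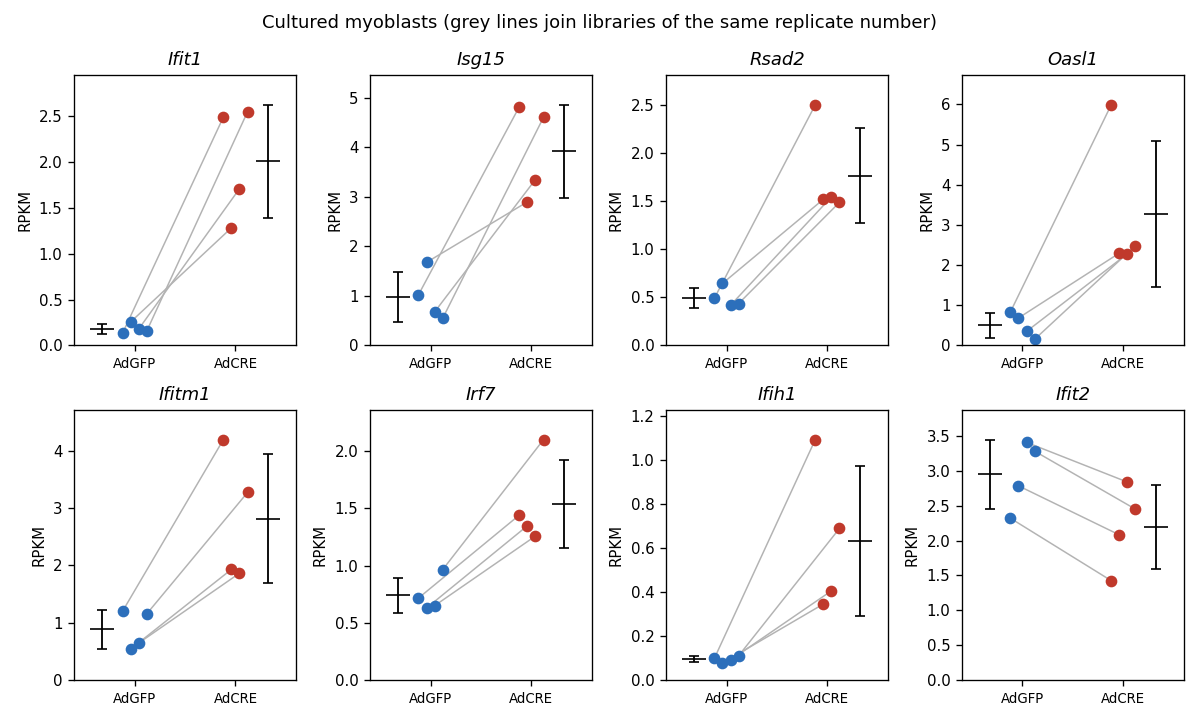
RPKM of 8 members in cultured myoblasts, with AdGFP in blue, AdCRE in red, grey lines joining libraries of the same replicate number, and the mean ± SD of 4 libraries in black. Ifit1, Isg15, Rsad2, Oasl1, Ifitm1, Irf7 and Ifih1 are higher in every AdCRE library than in any AdGFP library, and Ifit2 is lower within each pair.

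Bst2, or tetherin, holds budding virions at the cell surface, and on the log2(RPKM + 0.5) scale it had the largest fold change of the members in sorted cells. By the ratio of group means Ifit3b, at a far lower level, was higher (7.68 against 2.65). Bst2 was at 41.0, 46.9, 52.0 and 53.0 RPKM in Chd4dPax7ER and at 16.1, 22.4, 11.6 and 22.9 in Chd4fl/fl. Case and control libraries were widely apart (48.2 ± 5.52 against 18.2 ± 5.39, SD, n = 4, log2 fold change 1.42, SE 0.20, adjusted p = 0.00132). In culture the groups were also apart but much closer, at 12.1, 15.1, 12.1 and 10.8 RPKM in AdCRE and 9.35, 10.6, 9.97 and 7.73 in AdGFP. That difference passed with the block alone (log2 fold change 0.39, SE 0.13, adjusted p = 0.212, 0.00199 with the block).

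Among the transcription factors, Irf7, the factor that amplifies interferon production, was called in both settings, in culture with the block alone. Irf7 in AdCRE held 1.44, 1.35, 1.26 and 2.1 RPKM and in AdGFP 0.716, 0.629, 0.650 and 0.965. The groups did not overlap, each AdCRE library being the higher of its pair (log2 fold change 0.71, SE 0.16, adjusted p = 0.106, 0.00125 with the block). Sorted cells had 2.73, 3.74, 3.38 and 3.00 RPKM of Irf7 in Chd4dPax7ER and 1.20, 1.94, 1.82 and 1.75 in Chd4fl/fl (log2 fold change 0.78, SE 0.17, adjusted p = 0.00960). Stat2, a subunit of ISGF3, rose in sorted cells, at 8.96, 10.8, 13.1 and 10.5 RPKM against 7.22, 5.90, 7.93 and 5.27 (log2 fold change 0.68, SE 0.15, adjusted p = 0.0111). Again no control library reached a case library. In culture Stat2 was at 3.58 ± 0.281 with AdCRE and 3.46 ± 0.426 with AdGFP, a log2 fold change of 0.05 (SE 0.11, adjusted p = 0.888). Irf9, the DNA-binding subunit of ISGF3, and Irf1 passed in neither setting, with Irf9 at log2 fold changes of 0.03 and 0.07 and Irf1 at 0.21 and -0.04.

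The OAS genes on chromosome 5 encode sensors of double-stranded RNA that make 2-5A and activate RNase L, while Oasl1 is a family member known for restraining Irf7 translation. Oas1b is an exception among the OAS members, annotated as a transcribed pseudogene in GRCm38. Oasl1 in AdCRE was at 5.99, 2.3, 2.28 and 2.48 RPKM and in AdGFP at 0.83, 0.68, 0.346 and 0.148. Replicate 1 of AdCRE stood above the rest, and all 4 were above every control (log2 fold change 1.86, SE 0.33, adjusted p = 0.0615, 0.000625 with the block). Oasl1 in sorted cells held 5.05, 5.65, 5.39 and 4.95 RPKM in Chd4dPax7ER and 1.45, 2.37, 1.98 and 4.39 in Chd4fl/fl (log2 fold change 1.00, SE 0.25, adjusted p = 0.0177). The case libraries were close together and control replicate 4 came nearest to them. Oas1a, listed at 0 in culture, was at 1.43, 2.21, 1.31 and 0.94 RPKM in Chd4dPax7ER and 0.42, 0.84, 0.53 and 0.47 in Chd4fl/fl. It passed (log2 fold change 0.87, SE 0.24, adjusted p = 0.0258), was lost without Chd4dPax7ER replicate 1 or 2 or Chd4fl/fl replicate 1, 3 or 4 (up to 0.0655) and with no filter (0.0566), and shares sequence with other Oas1 copies. Oas2 and Oasl2 did not pass in sorted cells, and Oas1b, Oas1g and Oas3 had group means under 0.5 RPKM in both settings.

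The Mx GTPases gave no call. Mx1 and Mx2 are annotated as transcribed pseudogenes in GRCm38, whose strain is C57BL/6. They were under the filter in culture and overlapped between groups in sorted cells, where Mx1 was at 1.13 ± 0.794 against 1.17 ± 0.604 RPKM and Mx2 at 1.39 ± 0.783 against 0.713 ± 0.416 (adjusted p = 0.886 and 0.195).

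Ddx58 and Ifih1 encode RIG-I and MDA5, the cytoplasmic sensors of viral RNA, and Dhx58 encodes their relative LGP2. Ddx58 was at 0.947, 0.910, 1.02 and 0.815 RPKM in AdCRE and 0.581, 0.503, 0.507 and 0.457 in AdGFP. The groups were apart, and Ddx58 passed with the block but not in the unpaired test (log2 fold change 0.49, SE 0.11, adjusted p = 0.102, 0.00679 with the block). Without the variance trend it passed unpaired as well (limma adjusted p = 0.0367). Ddx58 rose in sorted cells, with 5.12, 7.07, 8.55 and 6.12 RPKM in Chd4dPax7ER and 2.93, 4.33, 3.22 and 4.49 in Chd4fl/fl (log2 fold change 0.76, SE 0.18, adjusted p = 0.0156). Ifih1 in AdCRE was at 1.09, 0.345, 0.405 and 0.688 RPKM and in AdGFP at 0.0993, 0.0776, 0.0913 and 0.111. No AdCRE library came near the controls, with 72 to 264 reads against 15 to 35, but only a pair of libraries reached the filter. With no filter Ifih1 did not pass (adjusted p = 0.146), and it passed there with the block (0.0314). In sorted cells Ifih1 was at 2.65 ± 1.13 against 2.16 ± 0.473 RPKM (adjusted p = 0.627). Trim25, the ubiquitin ligase that acts on RIG-I, was at 20.7, 23.6, 27.4 and 19.5 RPKM in Chd4dPax7ER and 15.8, 17.5, 16 and 19.5 in Chd4fl/fl. The lowest case library and the highest control library were nearly level (log2 fold change 0.39, SE 0.12, adjusted p = 0.0379). The call was lost without Chd4dPax7ER replicate 2 or 3 or Chd4fl/fl replicate 1, 2 or 3 (up to 0.0924), with TPM or quantile scaling, without the filter and without the variance trend. Dhx58 and Zbp1, a sensor of Z-form nucleic acid, passed in neither setting.

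The IFITM proteins sit in membranes and hinder virus entry, and the members lie together on chromosome 7. Ifitm3, the most abundant member in sorted cells, was at 535, 478, 580 and 581 RPKM in Chd4dPax7ER and 293, 332, 344 and 333 in Chd4fl/fl. Replicates were tight and far apart (543 ± 48.8 against 325 ± 22.6, SD, n = 4, log2 fold change 0.74, SE 0.08, adjusted p = 0.000486). Ifitm2 rose as well, at 147, 132, 122 and 164 RPKM against 80.8, 102, 85.4 and 97.6 (log2 fold change 0.62, SE 0.11, adjusted p = 0.00354). In culture neither passed, with Ifitm3 at 122 ± 32.9 against 117 ± 25.6 RPKM and Ifitm2 at 162 ± 23.2 against 147 ± 16.4 (adjusted p = 0.956 and 0.663). Ifitm1 was the reverse. It held 4.19, 1.93, 1.86 and 3.27 RPKM in AdCRE and 1.20, 0.540, 0.646 and 1.15 in AdGFP, with no overlap (log2 fold change 1.23, SE 0.27, adjusted p = 0.103, 0.000307 with the block). Ifitm1 in sorted cells was at 4.01 ± 1.78 against 3.21 ± 1.33 RPKM and did not pass (log2 fold change 0.28, adjusted p = 0.569).

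Of the other 7 members, Ifi27, a mitochondrial and nuclear envelope protein, rose in sorted cells. Ifi27 was at 54.3, 77.4, 64.0 and 52.9 RPKM in Chd4dPax7ER and 24.2, 33.8, 26.6 and 32.9 in Chd4fl/fl, with wide separation (log2 fold change 1.07, SE 0.15, adjusted p = 0.00118). In AdCRE it held 15.5, 18.1, 16.2 and 15.6 RPKM and in AdGFP 13.0, 17.0, 13.4 and 13.9, which overlap (log2 fold change 0.19, SE 0.10, adjusted p = 0.408, 0.0185 with the block). The blocked call on Ifi27 was kept in 1 of 4 fits that leave out a pair. Ifi35, a leucine zipper protein, was at 7.58, 6.98, 6.62 and 6.73 RPKM in AdCRE and 5.23, 4.74, 4.02 and 4.22 in AdGFP. The groups were apart (log2 fold change 0.57, SE 0.10, adjusted p = 0.0524, 0.000631 with the block). Ifi35 also passed unpaired without the variance trend or with a pseudocount of 0.1 (lowest limma adjusted p = 0.0458). Lgals3bp, a secreted galectin ligand, was at 7.88, 4.15, 4.73 and 5.41 RPKM against 5.51, 2.88, 3.68 and 3.50, higher in each pair though the groups overlap (log2 fold change 0.46, SE 0.23, adjusted p = 0.379, 0.00181 with the block). Neither Ifi35 nor Lgals3bp passed in sorted cells (adjusted p = 0.418 and 0.145). Xaf1, Rtp4, Parp14 and Ifi44 passed in neither setting, and Parp14 and Ifi44 were under the filter in culture, where no library exceeded 0.116 RPKM.

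**Figure D3:**
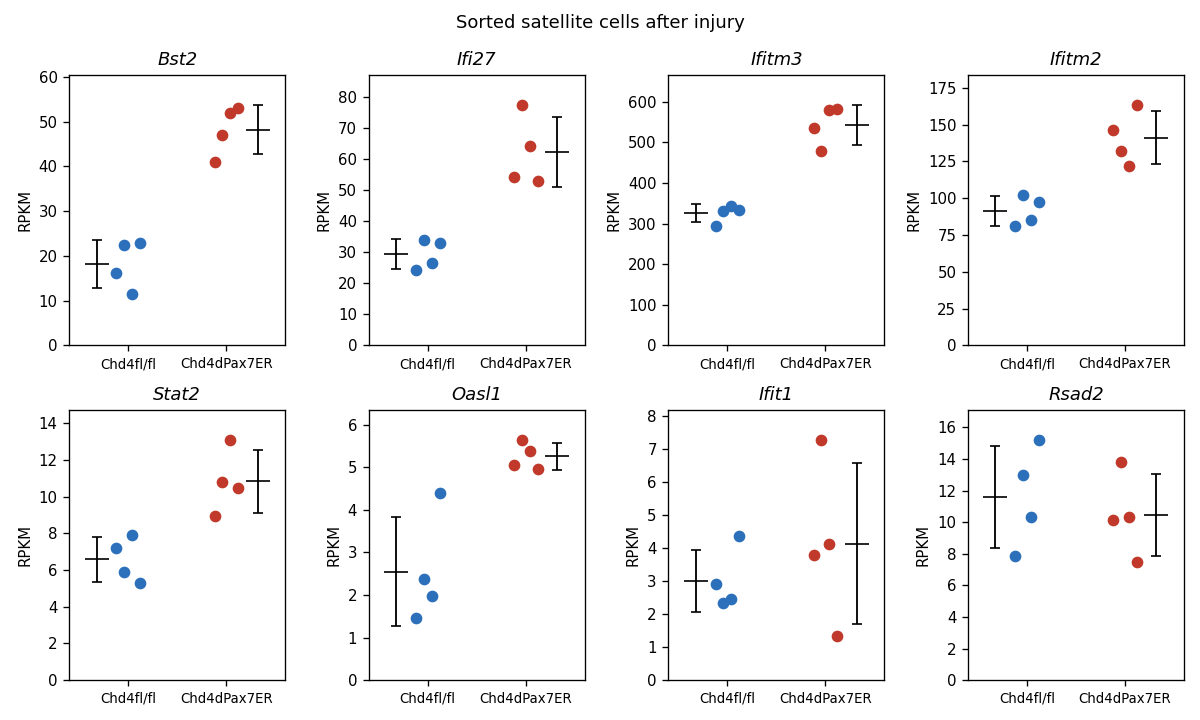
RPKM of 8 members in satellite cells sorted after injury, with Chd4fl/fl in blue, Chd4dPax7ER in red and the mean ± SD of 4 libraries in black. Bst2, Ifi27, Ifitm3, Ifitm2, Stat2 and Oasl1 separate the groups, while Ifit1 and Rsad2, which rose in culture, overlap.

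The settings were compared through a test of the difference between their fold changes, fitted over all 16 libraries for the 11941 genes tested in both tables. Of the 20 members in that fit, 1 had a larger log2 fold change in culture and 2 a larger one in sorted cells, where 1.69% and 2.43% of genes did. Rsad2 was larger in culture by 1.30 (SE 0.29, adjusted p = 0.0244), a call that was lost at 0.0541 without AdGFP replicate 3. Ifi27 was larger in sorted cells, with a difference of -0.88 (SE 0.19, adjusted p = 0.0174) that was kept in all 16 fits that leave out a library. Bst2 differed by -1.03 (SE 0.26, adjusted p = 0.0357), and this call was kept in 6 of 16 such fits, with values up to 0.0751. The 10 libraries without which it was lost were AdCRE replicates 1, 3 and 4, AdGFP replicates 1, 2 and 3, Chd4dPax7ER replicates 2, 3 and 4 and Chd4fl/fl replicate 1. Ifit1 had the largest difference, 1.59, but a wide error (SE 0.47, adjusted p = 0.0687). Isg15 differed by 1.07 (SE 0.49, adjusted p = 0.25), so a gap between settings was not shown for it.

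With the replicate block the difference was called for 7 members. The added genes were Ifitm1, larger in culture by 0.96 (adjusted p = 0.00972), and Ifitm3, Ifitm2 and Stat2, larger in sorted cells with differences of -0.69, -0.49 and -0.64 (adjusted p = 0.00325, 0.0218 and 0.0270). The 3 IFITM genes split between settings under the block. In that fit 5.93% of genes were larger in culture and 8.21% in sorted cells.

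Which members passed also differed, as did the share of all genes called higher, 0.516% in culture (17.5% with the block) and 14.7% in sorted cells. Over the 20 members tested in both settings, 3 were called in culture and 9 in sorted cells, and none was called in both. With so few calls in culture, an empty overlap says little. With the block in culture 5 were called in both (Bst2, Ddx58, Ifi27, Irf7 and Oasl1), which is 45.5% of the 11 called in culture and 55.6% of the 9 called in sorted cells. Across these 20 genes the fold changes of the settings had a Pearson r of 0.096, where all 11941 genes gave 0.559. Genes are not independent replicates, so these describe the tables. The sign was the same in both settings for 18 of the 20 members (90%), against 68.6% of all genes.

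**Figure D4:**
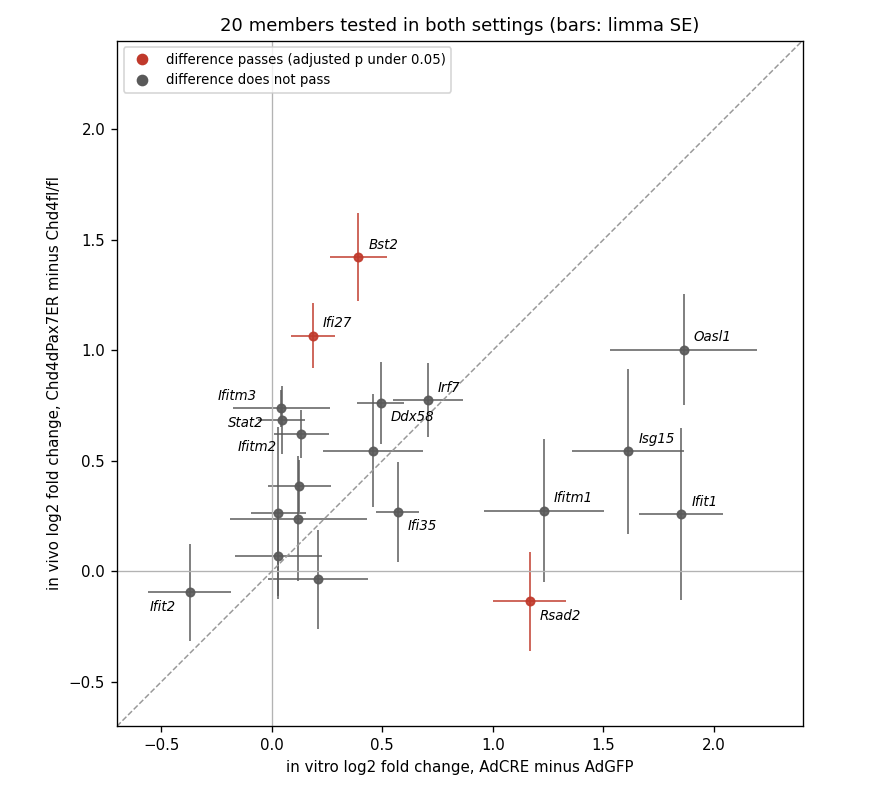
Log2 fold change on the log2(RPKM + 0.5) scale in culture (horizontal) against sorted cells (vertical) for the 20 members tested in both, with limma standard errors as bars and a dashed line of equal change. Members in red (Rsad2, Ifi27 and Bst2) differed between settings at an adjusted p under 0.05. Ifit1, Isg15, Rsad2, Oasl1 and Ifitm1 lie to the right, and Bst2, Ifi27, Ifitm3, Stat2 and Ifitm2 lie high and near the vertical axis.

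Control levels of the members were higher in sorted cells than in culture for 34 of 37, all but Ifitm2, Lgals3bp and Xaf1. The median ratio was 5.14 over the 34 members that were above 0 in the culture controls. The tables were normalized separately and their levels were not tested against each other. Control means exceeded 1 RPKM for 13 members in culture and 27 in sorted cells. The same shares over all genes were not taken, so these counts cannot be read as particular to the members.

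Members with and without an ISRE match in their promoter were described side by side. In culture 3 of 8 tested members with a match were higher (median log2 fold change 0.44) and 0 of 10 without one (median 0.33), where 0.516% of all tested genes were. With the replicate block these counts became 5 of 8 and 5 of 10, where 17.5% of all tested genes were higher. The members without a match ranged from -0.37 for Ifit2 to 1.86 for Oasl1. In sorted cells 7 of 12 with a match were higher (median 0.65) and 3 of 12 without one (median 0.25), where 14.7% of all tested genes were. These groups were not tested against each other.

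Genes that act before and beside the 37 were counted from lists of the pathway. The interferons themselves were scarce. Of 19 interferon genes, 14 are listed at 0 in all culture libraries, Ifnb1 and Ifng among them, and none of the others exceeded 0.203 RPKM. In sorted cells 16 are listed at 0, and Ifnb1 was at 2.20, 1.39, 0.62 and 0 RPKM in Chd4dPax7ER and 0.42, 0, 0.22 and 1.37 in Chd4fl/fl. Those values overlap and did not pass (log2 fold change 0.55, SE 0.56, adjusted p = 0.506). Of the receptors and their kinases, 8 of 9 were tested in each setting and 0 passed (1 and 4 had an unadjusted p under 0.05 in culture and sorted cells). With the block in culture 2 were higher and 2 lower, where 17.5% and 18.7% of all genes tested were.

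Of 12 tested genes of nucleic acid sensing, 1 was higher in culture, where 0.516% of all genes tested were. In sorted cells 4 were higher and 1 lower, where 14.7% and 11.9% of all genes tested were. With the block in culture 5 were higher and 3 lower, where 17.5% and 18.7% of all genes tested were. Irf5, a factor downstream of Toll-like receptors, rose in both, from 0.383 ± 0.0894 RPKM to 1.46 ± 0.182 with AdCRE (log2 fold change 1.15, SE 0.13, adjusted p = 0.0106). Irf5 met the filter in culture through the AdCRE libraries alone. In sorted cells it rose from a mean of 0.892 ± 0.404 RPKM to one of 4.12 ± 1.14 (log2 fold change 1.76, SE 0.28, adjusted p = 0.00252). Tlr9, the endosomal receptor for DNA, was at 3.27, 6.12, 3.29 and 4.01 RPKM in Chd4dPax7ER and 0.41, 0.82, 0.48 and 0.42 in Chd4fl/fl (log2 fold change 2.16, SE 0.23, adjusted p = 0.000321). Tmem173, which encodes STING, was also higher, 36.7 ± 8.41 RPKM against 18.7 ± 2.63 (log2 fold change 0.94, SE 0.16, adjusted p = 0.00367). Eif2ak2, which encodes PKR, passed as higher (0.47, adjusted p = 0.0462), and Samhd1 was lower (-0.42, adjusted p = 0.0381). Of the fits that leave out a library, both of these last calls were kept only without Chd4dPax7ER replicate 1 (otherwise up to 0.111 and 0.0982).

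Ptpn6 was the 1 negative regulator of 5 tested that passed, and it did so in both settings. It encodes the phosphatase SHP-1, known for restraining cytokine receptors. Ptpn6 rose in culture, to 2.35 ± 0.457 RPKM from 0.578 ± 0.144 (log2 fold change 1.40, SE 0.15, adjusted p = 0.0106) and in sorted cells, to 3.35 ± 0.848 from 0.608 ± 0.272 (log2 fold change 1.80, SE 0.24, adjusted p = 0.000992). In culture the Ptpn6 call was lost without AdCRE replicate 2 (0.0532). With the block Socs1 was called as well.

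Of 29 further interferon-stimulated genes, 14 were tested in culture and 0 passed (3 had an unadjusted p under 0.05). With the block 2 were higher and 3 lower there, where 17.5% and 18.7% of all genes tested were. In sorted cells 25 were tested, and 3, Ifi27l2a, Rnf213 and Trafd1, were higher, a share under the 14.7% of all genes tested. The Rnf213 call (0.54, adjusted p = 0.0391) was kept without Chd4dPax7ER replicate 1 or Chd4fl/fl replicate 4 and lost in the other 6 such fits (up to 0.0939), and that on Trafd1 (0.40, adjusted p = 0.0195) was lost without Chd4fl/fl replicate 2 (0.0576). Ifi27l2a, a relative of Ifi27, was at 18.4, 22.8, 11.3 and 22.4 RPKM in Chd4dPax7ER and 1.36, 1.37, 2.52 and 3.49 in Chd4fl/fl (log2 fold change 2.87, SE 0.30, adjusted p = 0.000304). In culture Ifi27l2a was under the filter, at 0.437, 0.507, 0.228 and 0.426 RPKM in AdCRE and listed at 0 in all AdGFP libraries. With no filter it passed there (adjusted p = 0.0297, 0.0108 with the block). Of 16 GTPases known for induction by interferon gamma, 0 of 8 tested passed in culture (2 had an unadjusted p under 0.05). With the block 4 were higher, where 17.5% of all genes tested were. In sorted cells 2 of 11, Gbp6 and Irgm1, were higher, a share near that of all genes (log2 fold changes 0.91 and 0.78, adjusted p = 0.0398 and 0.0484), and each call was lost in 6 of 8 fits that leave out a library. Gbp6 was kept without Chd4dPax7ER replicate 4 or Chd4fl/fl replicate 3, and Irgm1 without Chd4dPax7ER replicate 1 or 4 (otherwise up to 0.0985 and 0.118).

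**Figure D5:**
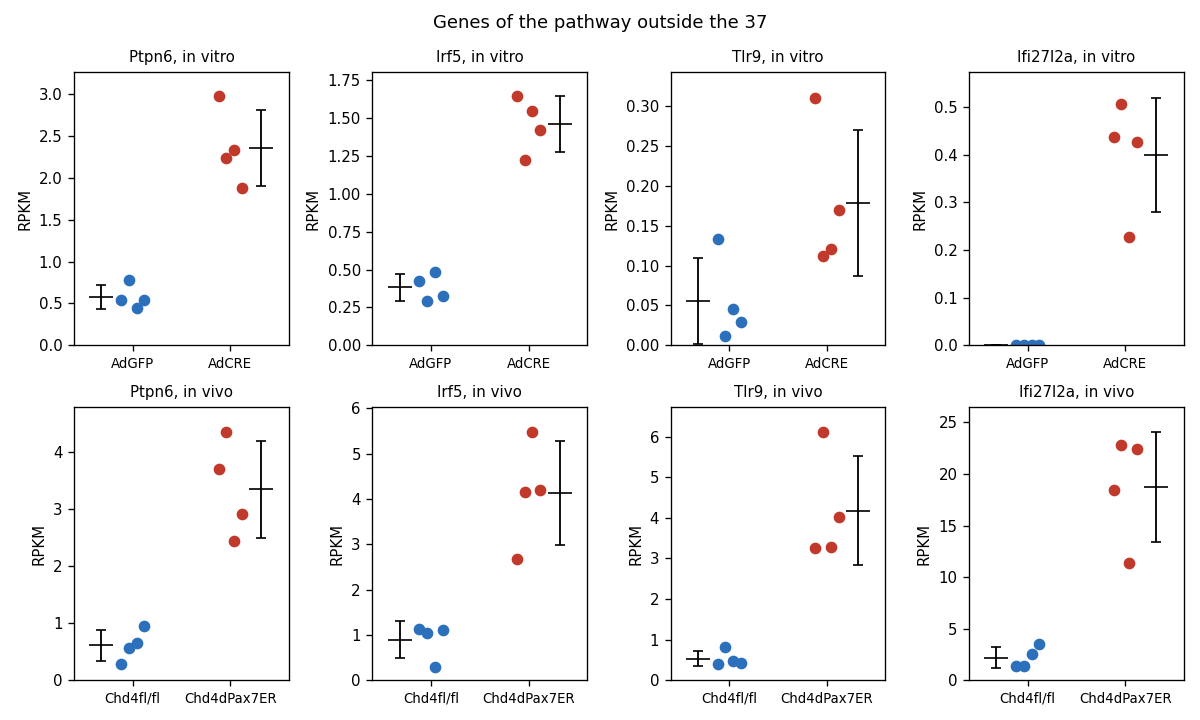
RPKM of Ptpn6, Irf5, Tlr9 and Ifi27l2a in culture (top) and in sorted cells (bottom), with controls in blue, case libraries in red and the mean ± SD of 4 libraries in black. Ptpn6 and Irf5 separate the groups in both settings. Ifi27l2a is listed at 0 in every AdGFP library.

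Markers of other cells moved with the groups in part. The summed level of 19 leukocyte markers was 18.7 to 28.2 RPKM in AdCRE and 6.50 to 11.1 in AdGFP, and most of it was Laptm5 and Cd68. Laptm5 was at 11.5 to 24.2 RPKM with AdCRE and 2.86 to 8.93 with AdGFP, and both passed as higher with the block alone (adjusted p = 0.102 and 0.565, or 0.000134 and 0.000700 with the block). The defining marker Ptprc, which encodes CD45, was at 0.0043 RPKM or less in culture, and Adgre1, C1qa, C1qb and S100a9 are listed at 0 in all 8 culture libraries. In sorted cells the same sum was 101 to 206 RPKM in Chd4dPax7ER and 77.5 to 148 in Chd4fl/fl. Ptprc was at 0.160 to 0.590 RPKM there, but some other leukocyte markers were plentiful. Mean Lyz2 was 84.2 RPKM in Chd4dPax7ER and 56.7 in Chd4fl/fl, and mean Cd68 was 15.7 and 10.1. Both overlapped between groups (limma adjusted p = 0.153 and 0.129). Of 14 tested markers, 10 had a log2 fold change above 0. Laptm5 alone passed as higher, where 14.7% of all genes tested did. Endothelial markers (7 genes) summed to 4.40 to 8.31 RPKM against 1.15 to 3.22 there, and most of the gap was Cldn5 (mean 4.09 against 0.703 RPKM, adjusted p = 0.00273). Egfl7 was also apart, while the defining markers Pecam1 (0.463 against 0.470 RPKM) and Cdh5 (0.245 against 0.32) overlapped. Markers of fibro-adipogenic progenitors (5 genes) summed to 185 to 317 RPKM against 72.6 to 96.6. Of these, Dcn rose from a mean of 10.9 RPKM to 109 (adjusted p = 2.67e-05) and Lum from 1.96 to 43.9 (adjusted p = 1.02e-05), while Pdgfra, Col3a1 and Ly6a did not pass. Both sums were higher in every Chd4dPax7ER library than in any Chd4fl/fl library, as were 11 of the 37 members, and their part in the results was not tested. One of those markers, Ly6a, which encodes the SCA1 that the sort selected against, was at 6.54 to 13.0 RPKM in Chd4dPax7ER and 1.83 to 8.53 in Chd4fl/fl. In culture Ly6a was at 9.79 to 15.6 RPKM with AdCRE and 1.69 to 4.01 with AdGFP (log2 fold change 2.13, SE 0.24, adjusted p = 0.0113). That call was lost without AdCRE replicate 2 or AdGFP replicate 3.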

How the data were processed

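Gene expression was measured by RNA-seq in 16 samples (4 groups of 4), and 8 ATAC-seq samples were not analysed here. The authors deposited 1 table of RPKM values per setting, with 46078 genes each. In vivo values carry 2 decimals. Builds mm10 and GRCm38 and the tools DESeq2 3.6, HISAT2 2.1.0 and cutadapt 1.18, among others, are named per the submitters' processing notes. The sources used here do not give which made the RPKM, how reads were counted or whether by strand, so genes with near copies (Ifit3b, Oas1 genes) are uncertain.

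Each case group was compared with its control on log2(RPKM + 0.5), for genes at 0.5 RPKM or more in at least 4 of 8 libraries, with limma 3.58.1 in R 4.3.3 (variances following the mean level), and p-values were adjusted by Benjamini-Hochberg over every tested gene. SE is limma's, and ± is the SD of 4 libraries. This scale understates fold changes of low genes. The difference between settings was fitted in 1 model over both tables. Scripts were tested on simulated data.

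Deviations from group means correlated at 0.711 to 0.856 between same-numbered libraries in vitro and at -0.0967 to 0.0499 in vivo. The numbers therefore pair the culture samples, and values with the replicate block are printed there where they change a call. In vitro read numbers are the smallest whole numbers, within 0.01, that fit a gene's RPKM and the relative depths. They were used for depth alone, and in vivo depth is unknown. Promoters were matched by symbol to RefSeq.

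The members, the pathway and marker lists and the alternatives were chosen with earlier results of these data known. Every member was counted, and per-library values are given for members that passed in a setting, with or without the block, or whose fold changes differed between settings. Values of Cmpk2, Ifih1 and of pathway genes beyond those that passed were chosen after their values were seen. Alternatives were another pseudocount, filter, scaling or variance model, the replicate block and leaving out each library.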

Additional observations from a re-analysis of the deposited data

Results flagged for a closer look

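A single library stood far from the other 3 of its group (by the ratio of its gap to the whole range) for 6 of the 106 groups of member values examined, 5.66%. Chance gives about 1 in 20. AdCRE replicate 1 was the library concerned for Rsad2 (2.50 RPKM, high), Oasl1 (5.99 RPKM, high) and Rtp4 (2.08 RPKM, low). In sorted cells these were Cmpk2 in Chd4dPax7ER replicate 4 (2.13 RPKM, low), Irf9 in Chd4dPax7ER replicate 3 (7.34 RPKM, high) and Xaf1 in Chd4fl/fl replicate 1 (0.50 RPKM, low).

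Fold changes differed between the settings for 3 members by a test of the difference itself. On the log2(RPKM + 0.5) scale, culture minus sorted cells, the difference was 1.30 for Rsad2, -0.88 for Ifi27 and -1.03 for Bst2 (limma adjusted p = 0.0244, 0.0174 and 0.0357).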

How the results depend on the processing

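The number of members higher in culture was 3, and became 1 with no filter, 4 with a pseudocount of 0.1, 5 without the variance trend and 11 with the replicate block. With the block and TPM scaling, no filter, a pseudocount of 0.1 or quantile scaling it was 10, 13, 11 and 12, and with the block and without the pair of replicate 1, 2, 3 or 4 it was 10, 11, 11 and 10. In each of these blocked fits 1 member was lower (Ifit2). Leaving out 1 library gave 1 to 2 members higher in culture. Members with a larger fold change in culture numbered 2 with a pseudocount of 0.1 and 2 with the block, and 0 to 2 without 1 library. Those with a larger one in sorted cells numbered 3 with no filter, 5 with the block and 1 to 3 without 1 library. The count in sorted cells stayed between 9 and 12 in every setting, 11 with the replicate block, whose numbers do not pair those samples. There the block lost Trim25 (adjusted p = 0.0775). Signs turned for some members that did not pass in that setting. With quantile scaling the log2 fold change was -0.017 for Irf9 in culture (-0.017 with the block), and -0.014 for Dhx58 and -0.052 for Zbp1 in sorted cells. With the block, it was -0.024 for Stat2 without the pair of replicate 3, -0.023 for Ifitm3 without the pair of replicate 4 and -0.0070 for Rtp4 without the pair of replicate 1. Leaving out 1 library in culture gave ranges of -0.088 to 0.16 for Irf9, -0.014 to 0.11 for Stat2, -0.083 to 0.16 for Ifitm3, -0.082 to 0.39 for Xaf1 and -0.062 to 0.091 for Rtp4. In sorted cells the ranges were -0.047 to 0.65 for Ifit1, -0.22 to 0.050 for Ifit2, -0.30 to 0.0063 for Rsad2, -0.19 to 0.13 for Irf1, -0.093 to 0.15 for Irf9 and -0.088 to 0.28 for Oasl2. They were -0.36 to 0.17 for Mx1, -0.011 to 0.37 for Ifih1, -0.015 to 0.22 for Dhx58, -0.070 to 0.18 for Zbp1, -0.038 to 0.56 for Rtp4 and -0.00070 to 0.33 for Parp14. The cause of these changes was not tested. Fits that join the block with another setting or leave out a pair were chosen after seeing the data. Members under the filter in culture had at most 72 reads in a library, apart from Ifih1 (264), and for Oas1a and Oas1g none, which limits the precision of those values.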
